A study of Mus musculus with 6 samples.

Results

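Cortical excitatory neuron identity genes are 9 genes that mark the glutamatergic projection neurons of the cerebral cortex: Cux1, Cux2 and Rorb of the upper layers, Fezf2, Bcl11b, Tle4 and Foxp2 of the deep layers, and Neurod6 and Slc17a7, which most cortical excitatory neurons share. They were listed by name, with earlier results of these data known. The set comprises every probe set (a group of oligonucleotides read as 1 value) whose platform annotation gives 1 gene symbol among the 9. That gave 31 probe sets of 45037, and 9 genes of 18193. Each gene had between 1 and 9 probe sets, and the brightest of them over all arrays stands for the gene unless another is named.

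Brain RNA was measured on 6 one-colour arrays in 3 groups of 2 samples, all C57/Bl6 and 2 months old. Knockout brains carried the Nestin-Cre transgene and 2 floxed copies of Pofut1, NestinCre control brains carried the transgene with wild type Pofut1, and Flox control brains carried 2 floxed copies without Cre. Nestin regulatory sequence drives Cre in neural progenitors, so their neuronal and glial progeny inherit the recombined allele, whereas cells of other origin do not. The labels do not say whether a sample was 1 animal or a pool, and the p-values here cover no more than the spread among these 6 samples, which may be technical.

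Pofut1 encodes the O-fucosyltransferase that Notch receptors need for full function, and Notch signalling holds progenitors back from becoming neurons. Projection neurons are born from cortical progenitors in sequence, deep layers before upper layers, and each class then keeps its own transcription factors. These genes are therefore read as a record of which neurons the cortex holds, although several are also transcribed elsewhere: Bcl11b and Foxp2 in striatal projection neurons, Rorb in the thalamus and Slc17a7 in hippocampal neurons and cerebellar granule cells. Because bulk tissue was assayed, fewer cells of a type and less RNA per cell cannot be told apart.

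Over all probe sets, arrays of different groups correlated at 0.985 to 0.995 and replicate arrays at 0.993 to 0.995, and the median log2 intensity of an array lay between 7.32 and 7.36. The brightest Pofut1 probe set read 9.25 and 9.44 in Knockout arrays, 9.84 and 9.77 in NestinCre control arrays and 9.95 and 9.81 in Flox control arrays. It stood at 70.8% of both controls (limma adjusted p = 0.211), and whether its probes fall inside the deleted stretch was not given. By Xist and the Y-linked Eif2s3y, 2 arrays were male, Knockout replicate 1 and NestinCre control replicate 2, and the remaining 4 female. The beta-actin control probe sets near the 3' and 5' ends of the transcript, a check of RNA integrity, differed by 1.41 on the log2 scale in Flox control replicate 1 and by 1.04 to 1.19 on the other 5 arrays. The 8 pituitary genes measured summed to an intensity of 778 to 852 in Knockout arrays, 688 to 773 in NestinCre control arrays and 1139 to 2374 in Flox control arrays. The 10 pan-neuronal genes had a median log2 difference of -0.01 between Knockout and both controls.

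None of the 31 probe sets passed when Knockout was compared with both controls (limma, Benjamini-Hochberg adjustment over all 45037 probe sets, threshold 0.05), where 0.0155% of all probe sets did. The smallest adjusted p among them was 0.265. The log2 differences of the 9 genes had a median of 0.05 and ran from -0.27 for Cux1 to 0.14 for Rorb, with 5 above 0 and 4 below. The median over all probe sets was -0.01. The sign of the members' median rested on single arrays, since it was -0.047 without Knockout replicate 1 and -0.023 without Flox control replicate 1. At an unadjusted p under 0.05 stood 5 of the 31 probe sets, all of Cux1, or 16.1% against 11.1% of all probe sets. Of these, 4 were lower and 1 was higher, where 5.08% of all probe sets were lower and 6.04% higher. For 6 of the 31 both Knockout arrays lay beyond all 4 control arrays, or 19.4% against 18% of all probe sets. They lay below for 4 Cux1 probe sets and Neurod6 and above for Foxp2, against 9.19% below and 8.77% above over all probe sets. Of the 9 brightest probe sets, 8 had a 95% confidence interval that included 0, and Cux1 was the exception.

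**Figure D1:**
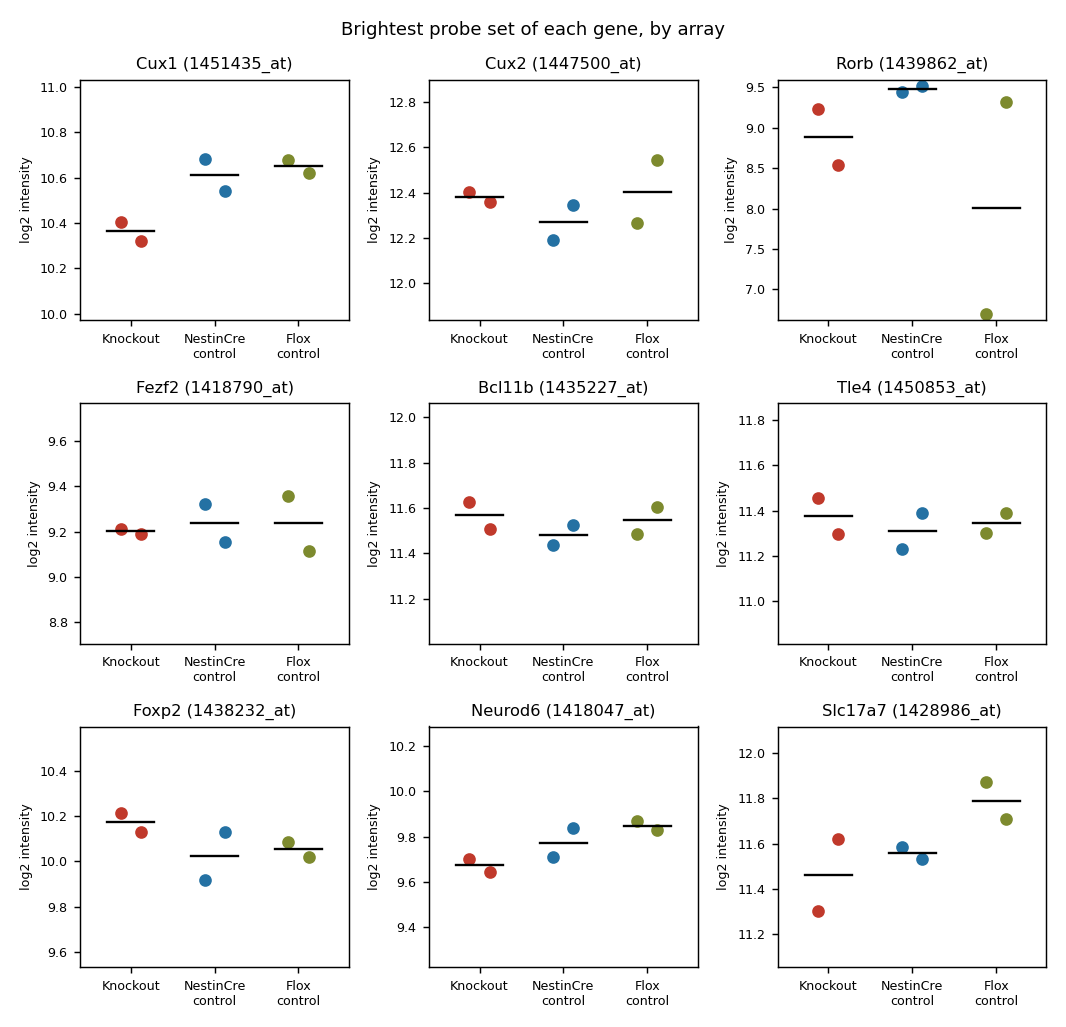
Log2 intensity of the brightest probe set of each gene on the 6 arrays, with Knockout at the left, NestinCre control in the middle and Flox control at the right of each panel. Points are arrays (replicate 1 left, replicate 2 right) and bars are group means. Each axis spans about 1 unit except that for Rorb, where Flox control replicate 1 lies at 6.70. Knockout points lie below all control points for Cux1 and Neurod6.

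Slc17a7 and Neurod6 are the pair that marks cortical excitatory neurons regardless of layer. Slc17a7 encodes VGLUT1, the transporter that loads glutamate into synaptic vesicles, and Neurod6 encodes a basic helix-loop-helix transcription factor of postmitotic pyramidal neurons. Factors of this kind bind the E-box, a short DNA motif. The promoter windows of both genes are shown because both lay below Flox control and each holds an E-box of the form CAGNTG. They run from 250 bases before to 50 after the RefSeq start of transcription (GRCm38.p6), 5′ to 3′ on the gene's strand, and capitals mark the E-box.
Neurod6, chr6:55681214-55681513, minus strand: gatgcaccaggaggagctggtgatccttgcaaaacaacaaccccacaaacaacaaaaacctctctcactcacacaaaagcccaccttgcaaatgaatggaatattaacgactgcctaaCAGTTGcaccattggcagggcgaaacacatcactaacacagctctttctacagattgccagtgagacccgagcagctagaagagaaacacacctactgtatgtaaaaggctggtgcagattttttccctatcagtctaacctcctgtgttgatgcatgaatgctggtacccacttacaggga
Slc17a7, chr7:45163671-45163970, plus strand: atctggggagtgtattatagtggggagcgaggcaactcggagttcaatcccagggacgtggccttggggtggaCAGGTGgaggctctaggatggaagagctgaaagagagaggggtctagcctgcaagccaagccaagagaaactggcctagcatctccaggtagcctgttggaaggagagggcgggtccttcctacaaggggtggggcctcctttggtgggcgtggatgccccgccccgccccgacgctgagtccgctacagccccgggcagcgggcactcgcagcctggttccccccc

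RefSeq windows were found for 8 of the 9 genes, all but Foxp2, with 11 start sites in all. CAGNTG, searched on both strands, was in 6 of the 11 windows, which belong to Cux2, Rorb, Neurod6 and Slc17a7, and in 51.4% of all 32851 windows of the same length. The core motif of RBPJ, the DNA-binding protein of the Notch pathway, was searched as TGGGAA on both strands and overlaps no CAGNTG match. It was in 1 of the 11 windows, a Rorb start, and in 25.6% of all windows. A match is a run of letters and not a measured binding site.

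Slc17a7 read 11.30 and 11.62 on the log2 scale in Knockout arrays, 11.58 and 11.53 in NestinCre control arrays and 11.87 and 11.71 in Flox control arrays. Both Knockout arrays lay below both Flox control arrays, while Knockout replicate 2 lay above both NestinCre control arrays. The order of the group means was Flox control, NestinCre control, Knockout, and only the Flox control arrays did not overlap with those of the other groups. Against both controls the log2 difference was -0.21 (SE 0.11, 95% confidence interval -0.49 to 0.07, limma adjusted p = 0.558). It was -0.10 (interval -0.42 to 0.23) against NestinCre control and -0.33 (interval -0.65 to -0.01, limma adjusted p = 0.307) against Flox control, where Knockout stood at 79.6%. Knockout replicate 1, the male array of its group, carried most of the difference from both controls. That difference was -0.05 without this array and -0.37 without Knockout replicate 2. The difference from Flox control was -0.17 without Knockout replicate 1 and ran to -0.49 without Knockout replicate 2.

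Neurod6 had log2 intensities of 9.70 and 9.64 in Knockout arrays, against 9.71 and 9.84 in NestinCre control arrays and 9.87 and 9.83 in Flox control arrays. Knockout lay below all 4 controls, with NestinCre control replicate 1 the nearest. The log2 difference from both controls was -0.14 (SE 0.06, interval -0.29 to 0.01, limma adjusted p = 0.484), and Knockout stood at 90.8% of them. Against NestinCre control it was -0.10 (SE 0.07) and against Flox control -0.18 (SE 0.07, limma adjusted p = 0.309). The difference from NestinCre control was -0.039 without NestinCre control replicate 2 and -0.16 without NestinCre control replicate 1. NestinCre control itself differed from Flox control by -0.07 (SE 0.07) for Neurod6 and by -0.23 (SE 0.13) for Slc17a7. With 1 array left out, these ran from -0.14 to -0.013 for Neurod6 and from -0.31 to -0.15 for Slc17a7.

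Among the upper-layer genes, Cux1 and Cux2 encode homeodomain transcription factors of upper-layer neurons, and Rorb encodes a nuclear receptor of the layer that receives thalamic input. The brightest Cux1 probe set, 1451435_at, read 10.40 and 10.32 in Knockout arrays, 10.68 and 10.54 in NestinCre control arrays and 10.68 and 10.62 in Flox control arrays. Both Knockout arrays lay below all 4 controls, and the 2 control groups overlapped. Knockout stood at 83.1% of both controls, a log2 difference of -0.27 (SE 0.06, interval -0.43 to -0.10), which did not pass over all probe sets (limma adjusted p = 0.289). With the arrays' sex as a covariate it was -0.26 (limma adjusted p = 0.404).

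The 9 Cux1 probe sets did not give 1 answer. In 4 of them both Knockout arrays lay below all controls, with log2 differences of -0.27 for 1451435_at, -0.38 for 1424667_a_at, -0.21 for 1424668_a_at and -0.26 for 1437686_x_at. The first 3 were designed from the same representative sequence, so they may read the same target, which was not tested. The second brightest probe set, 1434683_at, was almost as bright and read 10.42 and 10.43 in Knockout arrays, 10.30 and 10.49 in NestinCre control arrays and 10.24 and 10.32 in Flox control arrays, a log2 difference of 0.09 (SE 0.07) from both controls. Knockout overlapped NestinCre control there and lay above Flox control.

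Another pair of Cux1 probe sets set Flox control apart from the other 2 groups. Probe set 1441956_s_at read 7.20 and 7.14 in Knockout arrays, 7.31 and 7.14 in NestinCre control arrays and 6.47 and 6.74 in Flox control arrays. Both groups that carry the transgene lay above both Flox control arrays and overlapped each other. The log2 difference from Flox control was 0.57 (SE 0.11, limma adjusted p = 0.158) for Knockout and 0.62 (SE 0.11, limma adjusted p = 0.376) for NestinCre control, and these comparisons share the Flox control arrays. Probe set 1437431_at had the same order, with differences of 0.44 (SE 0.13) and 0.61 (SE 0.13). The remaining 2, 1425611_a_at and 1425612_at, were dim, at means of 6.70 and 5.63 where the lowest value on any array was 5.25, and differed from both controls by -0.14 (SE 0.10) and -0.09 (SE 0.11). The Cux1 locus is known to make more than 1 product, including the Golgi protein CASP from alternative exons, and which product each probe set reads was not given in the sources used here. In this maker's names, the ending _a marks probes shared by transcripts of 1 gene, _s probes shared by transcripts of several genes and _x probes that can bind unrelated sequence.

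**Figure D2:**
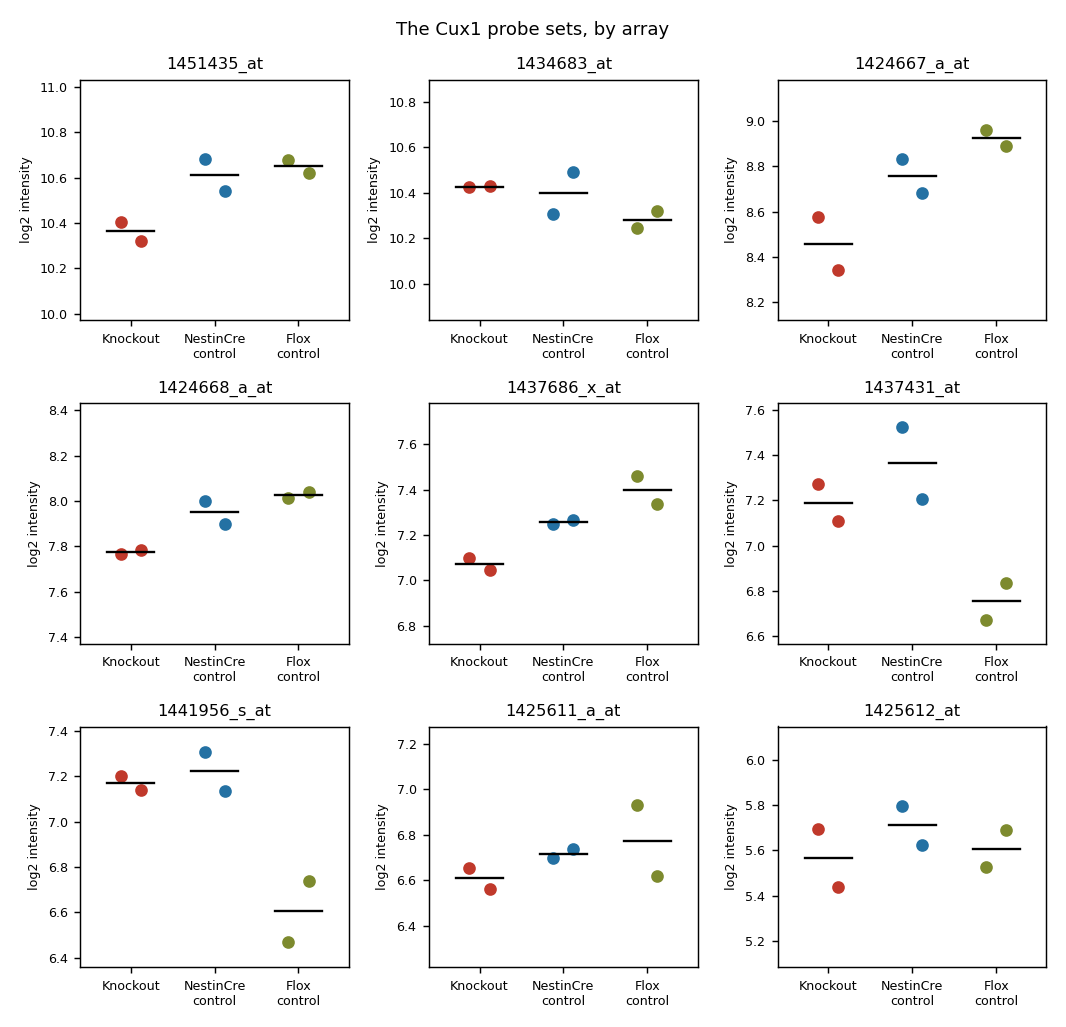
Log2 intensity of the 9 Cux1 probe sets on the 6 arrays, ordered from the brightest to the dimmest, with Knockout at the left of each panel, then NestinCre control and Flox control. Points are arrays and bars are group means. Both Knockout arrays lie below all control arrays in 4 panels, among them 1424667_a_at with a log2 difference of -0.38 from both controls, while both Flox control arrays lie below all others in the panels for 1437431_at and 1441956_s_at.

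The brightest Cux2 probe set read 12.40 and 12.36 in Knockout arrays, 12.19 and 12.35 in NestinCre control arrays and 12.27 and 12.54 in Flox control arrays. Both Knockout arrays lay between the Flox control arrays and just above both NestinCre control arrays. The log2 difference from both controls was 0.05 (SE 0.10, interval -0.21 to 0.30, limma adjusted p = 0.933), which is also the members' median. This probe set, 1447500_at, had a mean of 12.35 over all arrays. The other Cux2 probe sets were far dimmer, at means of 8.69 for 1450181_at and 7.88 for 1447821_at. They differed from both controls by -0.09 (SE 0.05) and 0.05 (SE 0.09). The cause of the gap in brightness was not tested. Probe set 1450181_at stood lower in Knockout (-0.20, SE 0.06) and in NestinCre control (-0.22, SE 0.06) than in Flox control, with limma adjusted p of 0.225 and 0.389.

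The sign of the Rorb difference from both controls rested on single arrays. Its brightest probe set, 1439862_at, read 9.23 and 8.53 in Knockout arrays, 9.44 and 9.51 in NestinCre control arrays and 6.70 and 9.32 in Flox control arrays. Flox control replicate 1, the array with the highest 3' to 5' actin difference, lay far below the other 5. The other Rorb probe sets on that array read 6.95 and 6.75, within the range of the other arrays (6.91 to 7.67 and 6.40 to 7.07). With that array the log2 difference of Knockout from both controls was 0.14 (SE 0.75, interval -1.79 to 2.07), and without it -0.52. Without Knockout replicate 1 it was -0.21. Against NestinCre control the difference was -0.60 (SE 0.86, from the spread of all 6 arrays), with both Knockout arrays below both NestinCre control arrays. Against Flox control the difference was 0.87 with Flox control replicate 1 and -0.43 without it, and the part of RNA integrity in it was not tested.

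**Figure D3:**
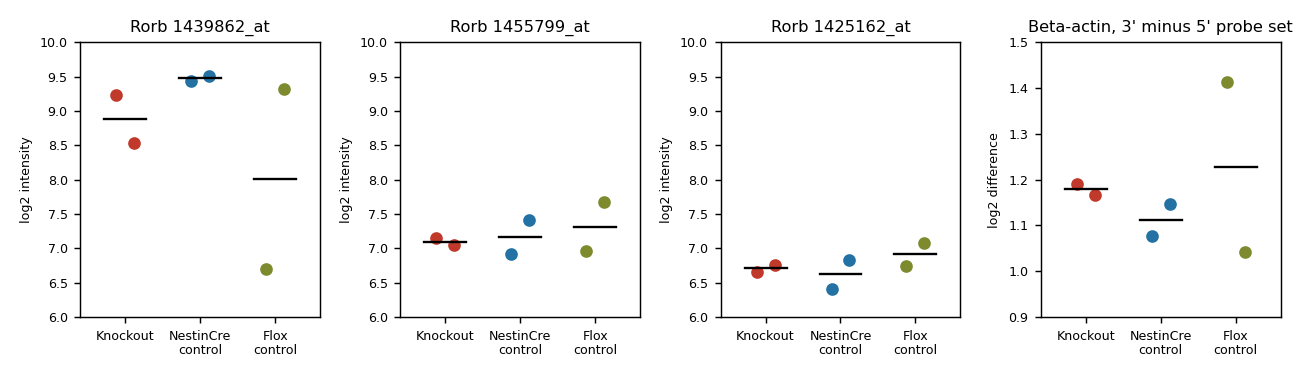
Log2 intensity of the 3 Rorb probe sets on the 6 arrays, all on 1 scale, and at the far right the log2 difference between the 3' and 5' beta-actin control probe sets. Points are arrays and bars are group means, in the order Knockout, NestinCre control and Flox control. Flox control replicate 1 reads 6.70 for 1439862_at and 1.41 for actin, apart from the other 5 arrays in both panels.

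The 4 deep-layer genes differed by -0.04 to 0.13 on the log2 scale between Knockout and both controls. Fezf2 encodes the zinc finger factor that specifies subcerebral projection neurons, and Bcl11b, also called Ctip2, acts downstream of it in those neurons. Fezf2 read 9.21 and 9.19 in Knockout arrays, 9.32 and 9.15 in NestinCre control arrays and 9.36 and 9.11 in Flox control arrays. Knockout lay inside the range of each control group. The log2 difference from both controls was -0.04 (SE 0.09, interval -0.28 to 0.20, limma adjusted p = 0.947). Bcl11b read 11.63 and 11.51 in Knockout arrays, 11.44 and 11.53 in NestinCre control arrays and 11.49 and 11.60 in Flox control arrays, again with all groups overlapping. Its difference was 0.05 (SE 0.07, interval -0.12 to 0.23), and its other 3 probe sets lay between -0.07 and 0.13.

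Tle4 encodes a Groucho-family corepressor, and Foxp2 a forkhead factor, of corticothalamic neurons. Tle4 read 11.46 and 11.29 in Knockout arrays, 11.23 and 11.39 in NestinCre control arrays and 11.30 and 11.39 in Flox control arrays, and the groups overlapped. The log2 difference from both controls was 0.05 (SE 0.08, interval -0.16 to 0.25, limma adjusted p = 0.904). Foxp2 read 10.21 and 10.13 in Knockout arrays, 9.92 and 10.13 in NestinCre control arrays and 10.09 and 10.02 in Flox control arrays. Both Knockout arrays were counted above all controls, although Knockout replicate 2 and NestinCre control replicate 2 were equal to 2 decimals. The difference was 0.13 (SE 0.08, interval -0.07 to 0.34, limma adjusted p = 0.618), and 0.080 without NestinCre control replicate 1. Its neighbour 1438231_at, designed from the same sequence, gave 0.01 (SE 0.07), and the 6 Foxp2 probe sets ran from -0.12 to 0.13, with 4 above 0 and 2 below.

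Foxp2 was the member with the smallest unadjusted p between the control groups. Its probe set 1422014_at read 7.77 and 7.86 in Knockout arrays, 7.62 and 7.57 in NestinCre control arrays and 7.96 and 7.96 in Flox control arrays. The 3 groups were apart from one another, with Knockout in the middle. NestinCre control stood 0.36 below Flox control on the log2 scale (log2 difference -0.36, SE 0.06, limma adjusted p = 0.376). Knockout differed by 0.22 (SE 0.06, limma adjusted p = 0.679) from NestinCre control and by -0.14 (SE 0.06, limma adjusted p = 0.341) from Flox control.

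**Figure D4:**
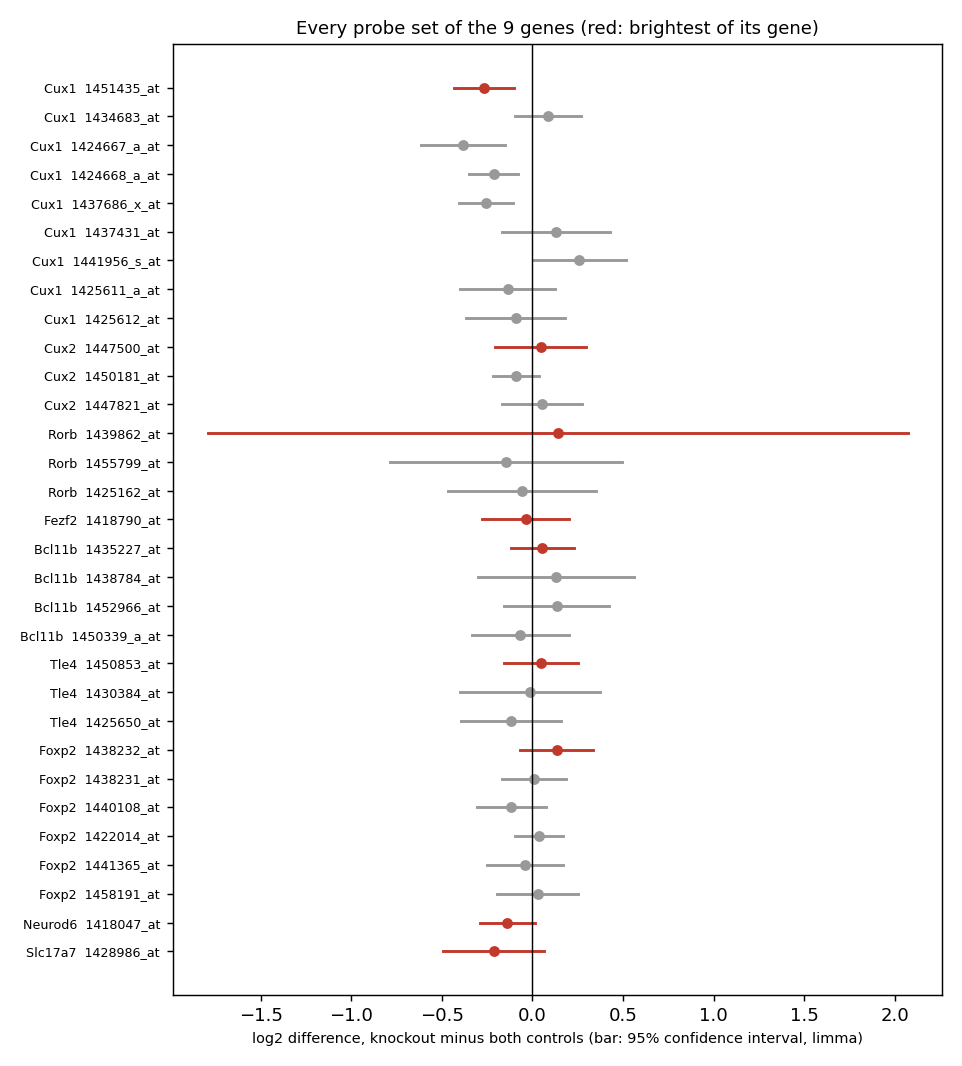
Log2 difference between Knockout and both controls for each of the 31 probe sets, with its 95% confidence interval from limma along the horizontal axis. The brightest probe set of each gene is red and the others are grey. The intervals of 4 Cux1 probe sets lie below 0, that of 1441956_s_at lies above 0 from its lower end of 0.0023, and the widest is that of Rorb 1439862_at, from -1.79 to 2.07.

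Against each control alone, again no member passed. The smallest limma adjusted p was 0.679 against NestinCre control, where 0% of all probe sets passed, and 0.158 against Flox control, where 0.00444% did. At an unadjusted p under 0.05 there were 5 of 31 probe sets against NestinCre control, or 16.1% where all probe sets had 5.81%. Of these 4 were lower, the Cux1 probe sets that lay below all controls, and 1, Foxp2 1422014_at, was higher, against 2.61% lower and 3.2% higher over all probe sets. Against Flox control there were 10 of 31, or 32.3% where all probe sets had 15.9%, with 8 lower in Cux1, Cux2, Foxp2, Neurod6 and Slc17a7 and 2 higher, both of Cux1, against 7.65% lower and 8.29% higher over all probe sets. Between the controls there were 4 of 31, or 12.9% where all probe sets had 10.4%, and none passed after adjustment, as for 0% of all probe sets. Both lower ones were of Cux2 and Foxp2 and both higher ones of Cux1, against 5.22% lower and 5.2% higher over all probe sets. Cux1 alone gave 4 of the 5 against NestinCre control and 6 of the 10 against Flox control.

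Replicate arrays of 1 group also differed from each other. For Cux2, Rorb, Bcl11b and Tle4 the higher array was replicate 1 in Knockout and replicate 2 in both control groups. Slc17a7 had the opposite pattern in all 3 groups, and the other 4 genes had neither. Over all probe sets the 2 patterns were found in 17.1% and 18.6%. These patterns were chosen after the values were seen. Knockout replicate 1 and NestinCre control replicate 2 were the male arrays, and both Flox control arrays were female. In the first 2 groups the patterns thus also run along sex, which cannot be told apart there from other differences between replicates. With sex as a covariate the members' median difference from both controls was 0.0078. Slc17a7 replicates were 0.32 apart in Knockout, 0.05 apart in NestinCre control and 0.16 apart in Flox control, against a difference of -0.21 between Knockout and both controls.

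By likeness of pattern over the 6 arrays, measured as the root mean square difference between profiles scaled to mean 0 and SD 1, the gene nearest to Slc17a7 among 11466 genes above the median brightness was Atp6v1e1, a subunit of the vesicular proton pump (0.00701). Then came Gtpbp1, a GTP-binding protein (0.0312), the O-mannosyltransferase Pomt1 (0.0832), the mitochondrial aspartate aminotransferase Got2 (0.0842) and Plpp7 (0.0851). Atp6v1e1 read 12.53 and 12.65 in Knockout arrays, 12.63 and 12.61 in NestinCre control arrays and 12.75 and 12.68 in Flox control arrays. Nearest to the mean profile of the 9 members were the von Hippel-Lindau gene Vhl (0.0985), Fitm2 (0.145), the fatty acid elongase Elovl4 (0.183), the chaperone Hspa13 (0.189) and Aldh5a1, which degrades a GABA metabolite (0.192). The members themselves lay at 0.627 for Tle4 to 1.53 for Fezf2 from that mean. They were not picked by distance, whereas the genes named were the closest of 11466, so these distances cannot be compared. Over only 6 arrays, close matches among that many genes can arise by chance.

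Lists of further upper-layer, deep-layer and telencephalic glutamatergic genes held 47 measured genes, of which none passed against both controls. Of these, 36 were below 0, as were 23664 of all 45037 probe sets, and the list medians were -0.06, -0.07 and -0.03 beside -0.01 for all probe sets. At an unadjusted p under 0.05 there were 7 lower (14.9%) and 1 higher (2.13%), against 5.08% and 6.04% of all probe sets. Both Knockout arrays lay below all controls for 12 (25.5%) and above for 2 (4.26%), against 9.19% and 8.77% of all probe sets. These lists hold only the brightest probe set of each gene, and they were chosen with earlier results of these data known. Lhx2, a LIM-homeodomain factor of cortical progenitors and upper-layer neurons, had the smallest p. It read 7.61 and 7.62 in Knockout arrays, 8.11 and 8.12 in NestinCre control arrays and 8.28 and 8.21 in Flox control arrays. The groups did not overlap, and the log2 difference from both controls was -0.57 (SE 0.05, limma adjusted p = 0.0890).

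The potassium channel gene Kcnh5 (-0.36, SE 0.09), Lamp5 (-0.13, SE 0.05) and Nectin3 (-0.17, SE 0.07) followed among upper-layer genes. Kcnh5 was dim, at a mean of 6.48 where the median over all probe sets was 7.34. For Nectin3 the difference was 0.037 from NestinCre control and -0.38 from Flox control. Deep-layer genes with the smallest p were the neurotensin receptor Ntsr1 of corticothalamic neurons (-0.33, SE 0.08), the cofactor Zfpm2 (-0.20, SE 0.05), the complexin Cplx3 of the subplate (-0.27, SE 0.08) and the transcription factor Sox5 (-0.16, SE 0.05). Their limma adjusted p ran from 0.304 to 0.406. From NestinCre control the differences were -0.13 for Ntsr1, -0.11 for Zfpm2, -0.15 for Cplx3 and -0.17 for Sox5. From Flox control they were -0.52, -0.29, -0.39 and -0.15 in the same order. NestinCre control itself differed from Flox control by -0.39 for Ntsr1, -0.17 for Zfpm2, -0.24 for Cplx3 and 0.03 for Sox5. Genes of the telencephalic glutamatergic list lay on both sides of 0, 4 above and 10 below. Those with the smallest p were the AMPA receptor subunit Gria2 at 0.29 (SE 0.07) and the calmodulin-binding neurogranin gene Nrgn at -0.29 (SE 0.08). Next were Arpp21 at 0.18 (SE 0.08) and the cortical homeobox gene Emx1 at -0.12 (SE 0.06). Gria2 read 12.06 and 12.04 in Knockout arrays, 11.76 and 11.88 in NestinCre control arrays and 11.62 and 11.79 in Flox control arrays, so Knockout lay above all controls.

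Lists for the regions and cells that share these genes or lie beside the cortex gave no pass in 99 list entries. Of these entries, 65 were below 0, so the lean below 0 was not limited to the cortical lists. At an unadjusted p under 0.05, 11.1% were lower and 5.05% higher, against 5.08% and 6.04% of all probe sets. Both Knockout arrays lay below all controls for 15.2% and above for 10.1%, against 9.19% and 8.77% of all probe sets. Striatal projection neuron genes, which share Bcl11b and Foxp2 with the cortex, had a median log2 difference of 0.02 from both controls. Their 10 measured genes summed to an intensity of 16002 to 17259 in Knockout arrays, 14720 to 16608 in NestinCre control arrays and 17477 to 17833 in Flox control arrays. Genes of the thalamus, which also transcribes Rorb, had a median of 0.02. Genes of the cerebellum and hippocampus, which also transcribe Slc17a7, had medians of -0.11 and -0.12. Cerebellar sums ran from 25790 to 26368 in Knockout arrays, 26172 to 27061 in NestinCre control arrays and 27521 to 28783 in Flox control arrays, with Flox control highest, as it was for Slc17a7. Hippocampal sums ran from 9539 to 9786 in Knockout arrays, 10023 to 10044 in NestinCre control arrays and 9956 to 10472 in Flox control arrays, with Knockout below all controls. The part of these regions in the Slc17a7 values was not tested. Medians were -0.09 for GABAergic interneuron, -0.11 for olfactory bulb, -0.08 for pituitary, -0.12 for astrocyte, -0.03 for oligodendrocyte and 0.15 for microglial genes. The astrocyte filament gene Gfap had a log2 difference of 0.86 (SE 0.07, limma adjusted p = 0.0890). Of the 8 astrocyte genes, 6 were below 0, among them Slc1a2 at -0.23 (SE 0.05), and only Gfap and Aqp4 (0.25, SE 0.06) were above. All 8 microglial genes were above 0, as were 21373 of all 45037 probe sets. One of them, Itgam, differed by only 0.03 and was dim, at a mean of 5.48. Against Flox control 7 microglial genes were above 0 and 1 below, with a median of 0.06. The part of these genes in the members' values was not tested.

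**Figure D5:**
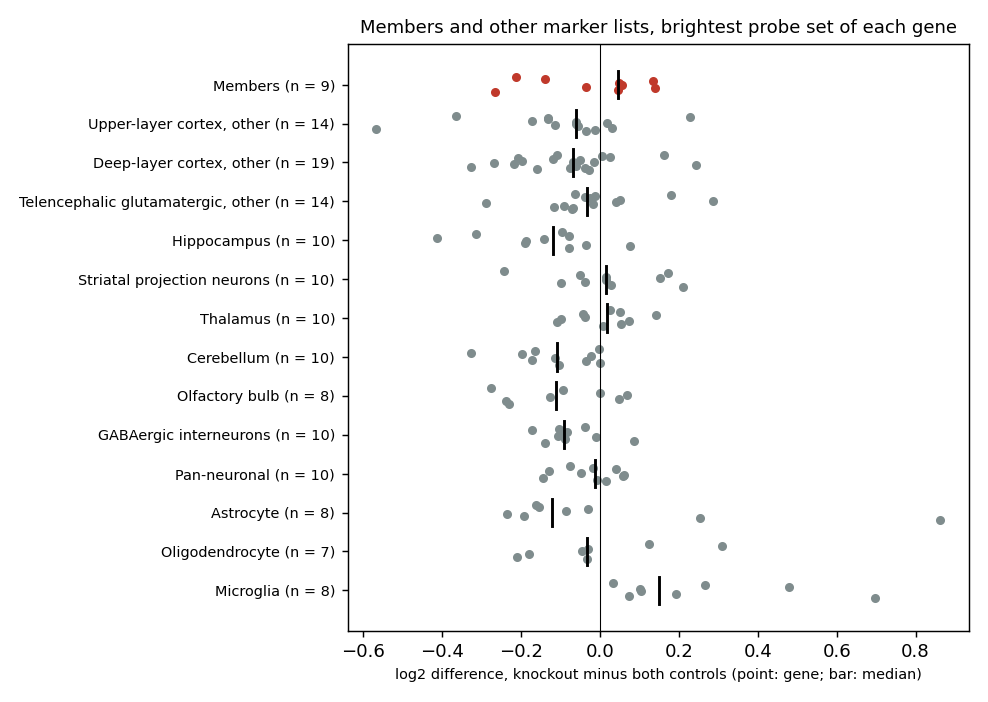
Log2 difference between Knockout and both controls for the brightest probe set of each gene, by list, without the pituitary list. Points are genes, black bars are list medians and the 9 members are red in the top row. The members' median of 0.05, which turns to -0.047 without Knockout replicate 1, and those of the cortical lists at -0.06 and -0.07 lie near 0, and of the genes drawn Lhx2 lies farthest left at -0.57 and Gfap farthest right at 0.86.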

How the data were processed

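The deposited values are probe set intensities on a linear scale, 1 per array, and the authors' steps are known only from RMA and GCOS, which the submitters' processing notes name with no version, role or order. RMA as usually run evens out the arrays' distributions, which removes shifts shared by most genes and compresses dim probe sets. No count of molecules lies behind these values, so the number of arrays limits the precision. Of 45101 probe sets, 64 controls were left out, and log2 of each intensity was taken. Limma 3.58.1 in R 4.3.3 fitted a mean for each of 3 groups over all 6 arrays with eBayes, which left 3 residual degrees of freedom (4.94 with the prior), and adjustment covered all 45037 probe sets. The step was tested on simulated data. Comparisons were Knockout against the mean of the 2 control groups, Knockout against each of them, and NestinCre control against Flox control.

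Members and lists were chosen with earlier results of these data known. From each further cortical list, up to 4 genes with the smallest p against both controls are named. Symbols come from the platform annotation, and 7 listed genes were not measured by a probe set with 1 symbol. Promoter windows come from RefSeq (GRCm38.p6). Alternatives were a repeated quantile normalization, median centring, a filter on dim probe sets, an intensity trend, log2 of the value plus 16, compared groups alone, replicate number or sex as a covariate, and each array left out.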

Additional observations from a re-analysis of the deposited data

How the results depend on the processing

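No member probe set passed in any of the 4 comparisons under any alternative. Of 531 alternative values for single genes, 234 equal the reported difference by construction, since settings such as the filter, the trend and the replicate block change only its error. Of the other 297, 266 kept their direction and 31 changed sign, and no adjusted p of the 531 passed. With each array left out in turn, the log2 difference of Knockout from both controls ran from -0.023 to 0.11 for Cux2, -0.52 to 0.79 for Rorb, -0.10 to 0.025 for Fezf2, -0.0043 to 0.11 for Bcl11b, -0.033 to 0.13 for Tle4, 0.080 to 0.19 for Foxp2 and -0.37 to -0.05 for Slc17a7. From NestinCre control it ran from -0.12 to 0.048 for Fezf2, -0.014 to 0.15 for Tle4, -0.16 to -0.039 for Neurod6 and -0.26 to 0.061 for Slc17a7. From Flox control it ran from -0.16 to 0.12 for Cux2, -0.43 to 2.18 for Rorb, -0.16 to 0.087 for Fezf2, -0.036 to 0.082 for Bcl11b, -0.052 to 0.11 for Tle4 and -0.49 to -0.17 for Slc17a7. Between NestinCre control and Flox control it ran from -0.11 to 0.031 for Cux1, -0.27 to 0.0027 for Cux2, -0.12 to 0.12 for Fezf2, -0.12 to 0.040 for Tle4 and -0.14 to 0.077 for Foxp2. A lone array left in a group was assumed to vary like the others.

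Against Flox control, median centring gave -0.0011 for Bcl11b, and sex as a covariate gave -0.028 for Bcl11b, 0.0019 for Fezf2 and -0.051 for Tle4. Centring gave -0.021 for Fezf2 between the controls. The cause was not tested. Over all probe sets, limma called 7 between Knockout and both controls, against 22 with centring, 34 with the filter, 135 with the intensity trend, 0 with the sex covariate and 0 to 1 with an array left out. Against Flox control it called 2, against 9, 23 and 162 with centring, filter and trend. Against NestinCre control it called 0, against 9, 11 and 39.

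Replicate differences correlated at -0.31 between Knockout and NestinCre control, -0.24 between Knockout and Flox control and 0.19 between the controls, so the numbers do not pair the arrays. The replicate block called 0 probe sets of any gene, as did a crossed pairing, Knockout numbers swapped, that was added after seeing the data. With 2 arrays a group, the printed intervals hold the differences that the fit allows, and they are not limits of detection. A difference whose interval left out 0 could still fail to pass, as for Cux1 1451435_at at -0.27 (interval -0.43 to -0.10). Dim probe sets such as Cux1 1425612_at lay near the lowest signal.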
